A study of Mus musculus with 6 samples.

Results

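Expression of 10 naive pluripotency factors, Klf2, Klf4, Klf5, Esrrb, Tfcp2l1, Tbx3, Zfp42, Nr0b1, Nr5a2 and Tcl1, was followed in mouse epiblast-like cells (EpiLCs) with and without functional Smad2 and Smad3. The genes were taken by symbol, and all 10 were found among the 24288 gene symbols of the expression table. For each symbol the entry with the highest total over the 6 libraries was used, because 4 of the 10 genes had several entries, 15 in all. All 10 passed the filter on low values, as did 17038 genes in the series.

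EpiLCs are embryonic stem cells (ESCs) that have been moved out of the naive state and model the early post-implantation epiblast. Male (XY) ESC lines on a 129/Sv//Ev background were kept with 1 µM PD0325091, 3 µM CHIR99021 and 1000 U/ml LIF, and then cultured on fibronectin for 48 h in N2B27 with 12 ng/ml Fgf2, 20 ng/ml Activin A and 1% KSR. Wild-type (WT) libraries (n = 3) came from the CCE line. Double knockout (DKO) libraries (n = 3) came from clone KT15.1F6, which is homozygous for the Smad2 null allele tm1Rob and in which exon 1 of Smad3 was removed with a CRISPR nickase. Each library stood for an independent differentiation, but each genotype for a single line, so the effects of the mutations and differences between the lines cannot be told apart. Both genotypes received Activin A, the ligand whose signal Smad2 and Smad3 transmit.

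In the naive state, transcription factors of this group occupy the regulatory regions of each other and of Pou5f1, Sox2 and Nanog, and several of them can replace one another. LIF acts through Stat3 on Klf4 and Tfcp2l1, inhibition of Gsk3 relieves Esrrb, Tfcp2l1 and Klf2 from repression by Tcf7l1, and inhibition of Mek removes the Erk signal that silences the network. Once these inputs are withdrawn the factors are normally lost within days, while Fgf5, Otx2 and Pou3f1 are induced. Of the 10, Tcl1 is an activator of the kinase Akt and not a DNA-binding protein, and Nr0b1 (Dax1) is a nuclear receptor that lacks the usual DNA-binding domain and acts as a co-regulator.

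Values are normalized reads, that is, reads over the gene body divided by the size factor of the library. Recovered depth lay between 57644143 and 63046034 reads per library, and 1 read was worth 0.518 to 0.569 normalized reads. As a check of the labels, Smad3 averaged 839 ± 37.0 normalized reads in WT but 23.6 ± 6.16 in DKO (SD, 3 libraries each), whereas gene-body reads of Smad2 were not reduced (4520 ± 86.3 and 5062 ± 109). Pou5f1, the defining gene of pluripotent cells, averaged 21846 ± 496 (WT) and 20761 ± 344 (DKO) normalized reads. Of 6 epiblast-like markers, 1 was called higher in DKO (Sox2) and 2 lower (Fgf5 and Pou3f1), while Otx2, Dnmt3b and Pou5f1 were not called. Fold changes, given with their standard error (SE), are DKO against WT on the log2(normalized reads + 1) scale and come from a limma fit over all entries with Benjamini-Hochberg adjustment. A call needed an adjusted p under 0.05 together with a change of more than 1.5-fold, up or down.

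All 10 factors had a higher mean in DKO than in WT EpiLCs, and none showed an overlap between the 3 WT and the 3 DKO values. Over all genes tested, 29.7% had all 3 DKO values above all 3 WT values. Of the 10 factors, 8 were called higher and 0 lower, against a background of 7.34% of genes called higher and 8.03% called lower (15.4% in either direction; counted over entries in place of genes, 7.41% were higher). The exceptions were Nr0b1 and Esrrb, which passed the adjusted p but not the fold threshold (of all genes, 27.1% passed the adjusted p in the higher direction and 26.5% in the lower). The median log2 fold change was 0.76 for the 10 factors and 0.00 for all genes. Summed over the 10 genes, WT libraries held 3944, 4187 and 4227 normalized reads and DKO libraries 6886, 7042 and 6947, a ratio of group means of 1.69. Since RNA was taken from whole cultures, more cells that express a factor and more RNA of it per cell cannot be told apart.

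**Figure D1:**
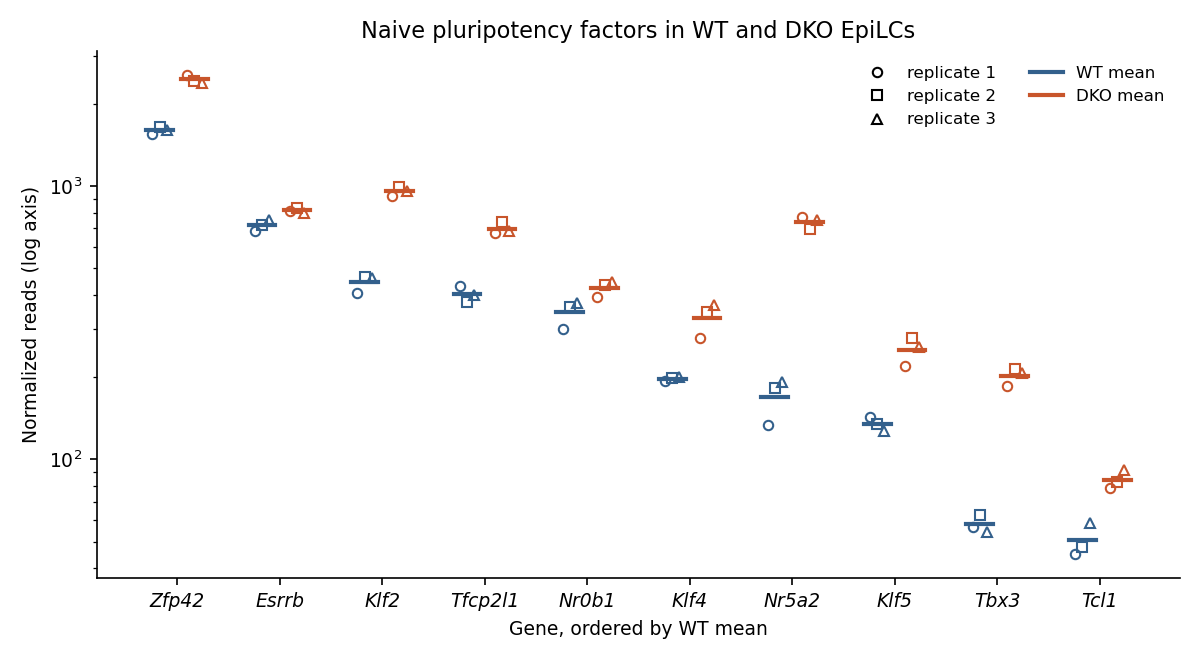
Normalized reads of each factor (log axis) in each WT (blue) and DKO (orange) library, with a different symbol per replicate and a bar at the group mean. DKO libraries lie above WT libraries for all 10 genes, by a wide gap for Nr5a2 and Tbx3 and by a narrow one for Esrrb and Nr0b1.

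The nuclear receptors spanned the whole range of responses. Nr5a2 (Lrh-1; NM_030676, mm10 chr1:136842562-136960448, minus strand) binds DNA as a monomer and is known to sustain Pou5f1 transcription in the epiblast. It measured 133, 182 and 192 normalized reads in WT replicates 1 to 3, and 770, 699 and 750 in DKO replicates 1 to 3. WT replicate 1 was the low library of its group, yet the lowest DKO value was still 3.64 times the highest WT value. The mean went from 169 ± 31.5 to 739 ± 36.5 (SD, n = 3 each). Its log2 fold change of 2.14 ± 0.09 (limma, adjusted p of 1.57e-17) ranked 68 from the top among the 17038 genes tested.

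Nr5a2 has 2 annotated starts, 6.82 kb apart, and the entries that begin at each of them were compared. The longer entry also extends farther at the other end, to chr1:136842571 against chr1:136845463 for the shorter one. These ends are GENCODE positions of the entries, whereas the span given above is that of the RefSeq gene. Reads that lay in the longer entry alone, at either end, numbered 2, 0 and 2 in WT and 0, 0 and 0 in DKO. The shorter entry collected 924 reads over the WT libraries and 4206 over the DKO libraries. The DKO increase was therefore counted downstream of the inner start, although a read that joins the outer first exon to the shared part would be counted in both entries. Its 250 upstream bases, taken with those of the outer start from RefSeq on GRCm38.p6 (the mm10 assembly), hold 4 matches to the letters CCNCNCCC of Klf factors, of which 1 pair overlaps, whereas the outer start has no match to any motif searched. Both are printed 5′ to 3′ on the strand of the gene and end at the base before the start site, and capitals mark the fixed letters of motif matches on either strand. The outer promoter lies at chr1:136960449-136960698 and the inner one at chr1:136953631-136953880.
Nr5a2 outer start: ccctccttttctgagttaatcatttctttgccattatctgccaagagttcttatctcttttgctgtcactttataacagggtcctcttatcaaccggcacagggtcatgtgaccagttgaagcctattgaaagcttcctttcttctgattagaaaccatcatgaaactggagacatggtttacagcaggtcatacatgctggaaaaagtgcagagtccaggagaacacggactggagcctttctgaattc
Nr5a2 inner start: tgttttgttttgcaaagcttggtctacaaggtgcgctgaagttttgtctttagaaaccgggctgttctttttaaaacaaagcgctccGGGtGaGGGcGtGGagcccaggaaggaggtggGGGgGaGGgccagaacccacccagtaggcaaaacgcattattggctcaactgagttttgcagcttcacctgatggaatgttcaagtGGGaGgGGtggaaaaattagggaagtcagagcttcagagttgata

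Esrrb (NM_001159500, chr12:86361117-86521628, plus strand) is an orphan receptor that shares the AAGGTCA half-site with Nr5a2 and is a direct target of Tcf7l1 repression. Its WT libraries measured 684, 719 and 751 normalized reads and its DKO libraries 813, 831 and 799. The groups did not overlap, but the gap was small, with the lowest DKO value 1.06 times the highest WT value. The mean went from 718 ± 33.3 to 814 ± 16.0 (log2 fold change 0.18 ± 0.05, limma, adjusted p = 0.0024). The 95% confidence interval of the log2 fold change, 0.08 to 0.28, lies under the 1.5-fold threshold (0.58 on the log2 scale) throughout. By group means the DKO level was 1.13 times the WT level.

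Esrrb likewise has 2 annotated starts, here 60.5 kb apart. The longer entry alone held 0, 0 and 0 reads in WT and 2, 8 and 4 reads in DKO, beside 3945 and 4620 reads of the shorter entry summed over the 3 libraries of each group. Almost all reads thus lay downstream of the inner start in both genotypes. These counts were too low to compare the genotypes at the outer start. The outer upstream bases (chr12:86360867-86361116) hold 8 Klf matches, 6 of them in a single run of G, and the only match to the Stat letters TTCNNNGAA among the 8 factors with a promoter sequence, and the inner ones (chr12:86421394-86421643) a single Klf match.
Esrrb outer start: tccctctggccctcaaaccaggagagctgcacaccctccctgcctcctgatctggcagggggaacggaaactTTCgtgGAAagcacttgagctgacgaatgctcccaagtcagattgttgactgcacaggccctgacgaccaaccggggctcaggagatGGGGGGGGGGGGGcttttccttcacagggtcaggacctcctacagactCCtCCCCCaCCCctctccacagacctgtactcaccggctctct
Esrrb inner start: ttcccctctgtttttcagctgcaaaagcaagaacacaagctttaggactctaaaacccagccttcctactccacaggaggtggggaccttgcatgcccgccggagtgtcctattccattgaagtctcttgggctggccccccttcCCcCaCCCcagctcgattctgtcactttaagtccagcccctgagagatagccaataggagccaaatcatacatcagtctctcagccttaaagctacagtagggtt

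Nr0b1 (NM_007430, chrX:86191775-86195947, plus strand) measured 301, 363 and 372 normalized reads in WT and 393, 436 and 446 in DKO. WT replicate 1 was again the lowest library, and the lowest DKO value was only 1.06 times the highest WT value. The mean changed from 345 ± 38.7 to 425 ± 28.1 (limma log2 fold change of 0.30 ± 0.08 with an adjusted p of 0.00124) and did not reach the fold threshold. Without WT replicate 1 the log2 fold change was 0.21.

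The 3 Krüppel-like factors, zinc finger proteins that bind CACCC and GC-rich boxes and that overlap in function in ESCs, were all called higher, Klf4 by a narrow margin. Klf2 (NM_008452, chr8:72319062-72321654, plus strand), which is sustained by Mek inhibition in naive cells, gave 406, 466 and 462 normalized reads in WT and 923, 995 and 960 in DKO. No DKO library fell below 1.98 times the highest WT library. The mean went from 445 ± 33.3 to 959 ± 36.0 (log2 fold change 1.11 ± 0.06, limma, adjusted p = 7.66e-16).

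Klf4 (NM_010637, chr4:55527137-55532475, minus strand), a target of LIF and Stat3, gave 193, 199 and 199 normalized reads in WT and 279, 346 and 366 in DKO. WT libraries were nearly equal, whereas DKO replicate 1 lay well below the other DKO libraries. The means were 197 ± 3.42 and 330 ± 45.6 (SD), and the log2 fold change was 0.73 ± 0.09 (limma, adjusted p = 5.04e-08). The 95% confidence interval, 0.55 to 0.91, contains the 1.5-fold threshold, and Klf4 was not called when tested against that fold change itself (adjusted p = 0.563). Klf5 (NM_009769, chr14:99298691-99313412, plus strand), which also acts in the trophectoderm, gave 143, 134 and 127 normalized reads in WT and 220, 277 and 259 in DKO. Here too DKO replicate 1 was the lowest DKO library and still stood above all WT libraries. The means were 135 ± 7.73 and 252 ± 29.5, and the log2 fold change was 0.89 ± 0.10 (limma, adjusted p = 7.40e-09).

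Klf2 and Zfp42, the most abundant factors per kilobase, are shown by their upstream bases as examples of the Klf matches. The bases before Klf2 (chr8:72318812-72319061) hold 4 matches, which overlap in 2 pairs. Those before Zfp42 (chr8:43307010-43307259) hold 3 Klf matches and, alone among the 8 factors, a match to the Tfcp2l1 motif, which is a pair of CCAG runs spaced 5 bases apart, and one to the octamer ATTTGCAT.
Klf2: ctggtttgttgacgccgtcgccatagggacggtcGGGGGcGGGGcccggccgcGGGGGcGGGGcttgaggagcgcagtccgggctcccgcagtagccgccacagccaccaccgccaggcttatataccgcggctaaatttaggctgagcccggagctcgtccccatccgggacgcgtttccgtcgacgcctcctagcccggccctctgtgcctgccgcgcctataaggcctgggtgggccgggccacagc
Zfp42: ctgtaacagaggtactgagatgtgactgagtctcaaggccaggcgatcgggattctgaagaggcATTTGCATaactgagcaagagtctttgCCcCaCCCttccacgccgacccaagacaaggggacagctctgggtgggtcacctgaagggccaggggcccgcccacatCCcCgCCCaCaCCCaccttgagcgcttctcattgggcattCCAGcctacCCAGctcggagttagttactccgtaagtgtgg

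Matches to CCNCNCCC were present for 7 of the 8 factors whose upstream bases were at hand, all except Nr0b1. Counted by promoter, 8 of their 10 held a match, but so did 45.9% of all 32807 promoters of the same length. These letters match the GC box of Sp proteins as well. The comparison was not matched for base composition. The median GC content of all promoters was 52.4%, and factor promoters with a match ranged from 49.6% (Nr5a2 inner start) to 74.0% (Klf4). The Stat letters were found in 7.02% of all promoters, the Tfcp2l1 motif in 2.81%, the octamer in 1.60%, and the GC-rich Smad element GGCGCC, here present once before Tfcp2l1, in 9.59%. No member promoter held AAGGTCA (4.08% of all promoters), the T-box letters AGGTGTGA (1.12%), GCCATNTT of Zfp42 and Yy1 (3.90%), ATCAAAG of Tcf factors (3.21%) or the Smad palindrome GTCTAGAC (0.168%). A match is a description of letters only, and upstream bases of Klf5 and Tbx3 were not analysed here.

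Zfp42 (Rex1; NM_009556, chr8:43295067-43307009, minus strand), a zinc finger protein of the Yy1 family whose loss marks the exit from the naive state in reporter lines, held the most reads of the 10. It measured 1549, 1638 and 1610 normalized reads in WT and 2555, 2426 and 2383 in DKO, and the lowest DKO library exceeded the highest WT library 1.46 times. The mean rose from 1599 ± 45.2 to 2455 ± 89.2 (limma log2 fold change of 0.62 ± 0.04 with an adjusted p of 1.95e-14). Its 95% confidence interval, 0.54 to 0.69, contains the 1.5-fold threshold, so the change itself was well above replicate spread while its call rested on a narrow margin and was lost in the test against 1.5-fold (adjusted p = 1).

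Tfcp2l1 (NM_023755, chr1:118627923-118685168, plus strand), a grainyhead-like factor downstream of both LIF and Wnt inputs, measured 432, 377 and 400 normalized reads in WT and 672, 737 and 687 in DKO. The groups were far apart compared with their spread. The mean went from 403 ± 27.7 to 698 ± 33.9 (log2 fold change 0.79 ± 0.06, limma, adjusted p = 5.36e-12). Within its span lie the small annotated genes Gm22094, Gm28882 and Gm23497, whose reads could not be separated.

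Tbx3 (NM_198052, chr5:119670534-119684724, plus strand), a T-box factor of naive cells and of extra-embryonic endoderm, held the second fewest reads in WT and showed the second largest increase. It gave 56.4, 62.6 and 54.4 normalized reads in WT and 185, 213 and 206 in DKO, so each DKO library stood at least 2.96 times above each WT library. The mean rose from 57.8 ± 4.27 to 202 ± 14.7 (limma log2 fold change of 1.78 ± 0.12 with an adjusted p of 1.88e-13), and its fold change ranked 125 from the top. The antisense gene Tbx3os1 overlaps Tbx3, and because the use of strand in counting is not stated, reads of the pair cannot be told apart.

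Tcl1 (NM_009337, chr12:105216753-105222737, minus strand), the Akt activator, held the fewest reads of the 10, with 84 to 110 reads per WT library and 146 to 176 per DKO library before normalization. After normalization it measured 45.1, 47.8 and 58.7 in WT and 78.6, 83.0 and 91.2 in DKO. The groups did not overlap, and the mean went from 50.5 ± 7.17 to 84.3 ± 6.42 (log2 fold change 0.73 ± 0.15, limma, adjusted p = 0.00013). This was the least precise of the 10 estimates, with a 95% confidence interval of 0.43 to 1.04 that contains the 1.5-fold threshold. Tcl1 was not called in the test against that fold change (adjusted p = 1).

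**Figure D2:**
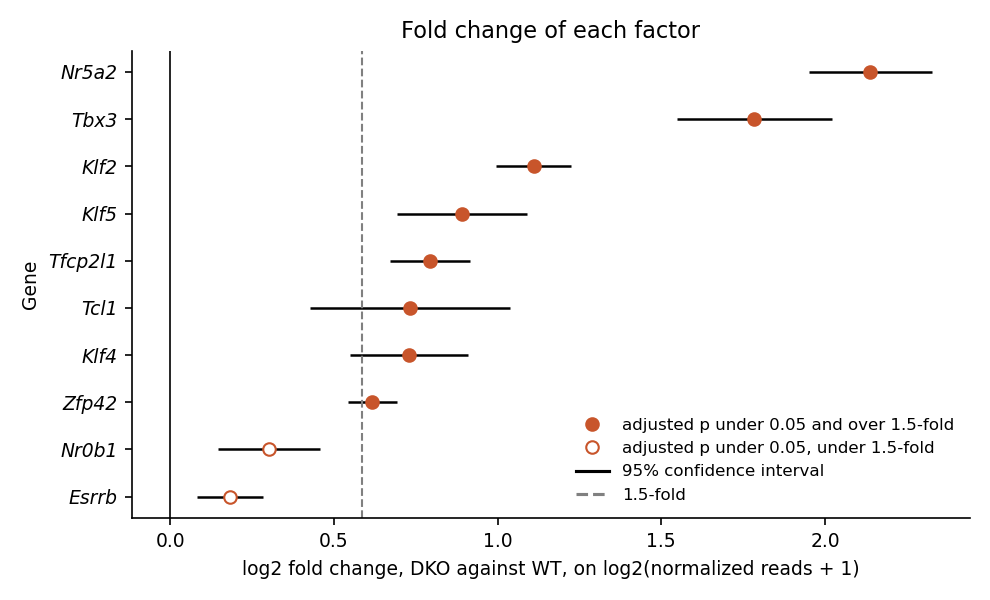
Log2 fold change (DKO against WT) of each factor with its 95% confidence interval from the limma fit, filled where the gene was called, with the 1.5-fold threshold dashed. Nr5a2 at 2.14 and Tbx3 at 1.78 lie apart from the rest, and Esrrb at 0.18 and Nr0b1 at 0.30 lie under the threshold.

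Set in order of fold change, neighbouring factors were compared. Nr5a2 exceeded Tbx3 by 0.35 ± 0.15 on the log2 scale (SE of the difference), and Tbx3 exceeded Klf2 by 0.67 ± 0.13, both beyond 2 standard errors. From Klf2 through Klf5, Tfcp2l1, Tcl1 and Klf4 to Zfp42, no gene was told apart from the next in order, and genes farther apart in the order were not compared. Zfp42 then exceeded Nr0b1 by 0.32 ± 0.08, and Nr0b1 and Esrrb were not told apart (difference 0.12 ± 0.09). The responses therefore ran from a ratio of group means of 1.13 for Esrrb to 4.37 for Nr5a2.

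The libraries of a group did not all stand at the same height. WT replicate 1 held the lowest WT value for 7 of the 10 factors, and DKO replicate 1 the lowest DKO value for 7 of the 10. For Zfp42 and Nr5a2, in contrast, DKO replicate 1 was the highest DKO library. The coefficient of variation reached 18.6% in WT for Nr5a2 and 13.8% in DKO for Klf4, the widest of each group.

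Because the factors rose by unequal amounts, the make-up of their reads differed between genotypes. Zfp42 supplied 38.8% ± 0.651 of the summed normalized reads of the 10 genes in WT and 35.3% ± 1.57 in DKO (SD, n = 3 each). Esrrb, the second largest contributor in WT, went from 17.4% ± 0.308 to 11.7% ± 0.171, and its highest DKO share (11.8%) lay below its lowest WT share (17.2%). Nr5a2 moved the other way, from 4.09% ± 0.624 to 10.6% ± 0.642, close to the DKO share of Esrrb. Klf4 kept 4.79% ± 0.0976 in WT and 4.74% ± 0.627 in DKO, and Tcl1 1.22% ± 0.142 and 1.21% ± 0.0905.

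**Figure D3:**
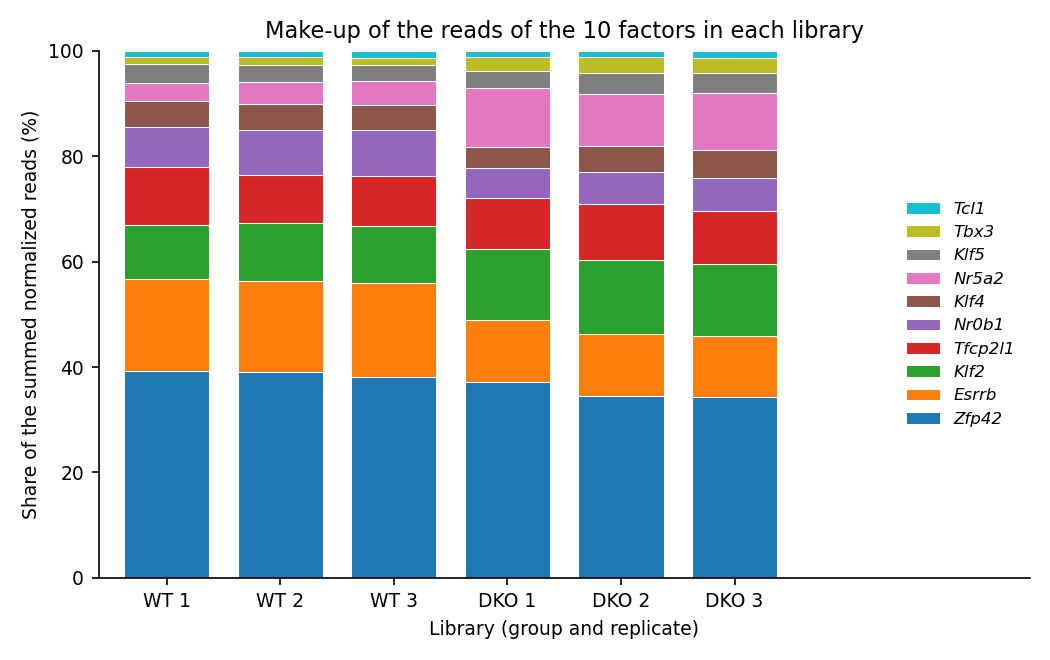
Share (%) of the summed normalized reads of the 10 factors that each gene supplied in each WT and DKO library, stacked to 100%. The Esrrb band narrows from about 17.4% to 11.7% and the Nr5a2 band widens from 4.09% to 10.6% between WT and DKO, while the bands of Klf4 and Tcl1 keep their width.

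Levels can be set beside each other between genes only per length, and the choice of length mattered since introns were included in the counts. Per kilobase of the exons of the entry, the WT order of mean normalized reads was Zfp42 (902), Klf2 (241), Nr0b1 (191), Esrrb (167), Klf4 (65.2), Tfcp2l1 (43.5), Klf5 (40.2), Tcl1 (36.1), Nr5a2 (35.7) and Tbx3 (12.1). Neighbours in this order whose WT libraries overlapped were Nr0b1 and Esrrb, Tfcp2l1 and Klf5, Klf5 and Tcl1, and Tcl1 and Nr5a2. In DKO, Nr5a2 stood at 156 normalized reads per kilobase of exons, which placed it at rank 5, behind Esrrb (189) and ahead of Klf4 (109), with no overlap of libraries with either of them. Tbx3 remained last at 42.2.

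Per kilobase of gene body the order was different for the genes with long introns. Klf2 led in WT with 171 normalized reads per kilobase, followed by Zfp42 (134), Nr0b1 (82.7) and Klf4 (37.0), and the remaining 6 lay between 9.16 for Klf5 and 1.43 for Nr5a2. Esrrb, whose body spans 160512 bp, ranked 8 in WT at 4.47 and last in DKO at 5.07, whereas Nr5a2 (117887 bp) rose from last to rank 9 at 6.27. These spans begin at the outer starts, and almost no Esrrb reads lay in the 60.5 kb before its inner start. That stretch lowers the Esrrb values, so the order of Esrrb and Nr5a2 depends on the length chosen. Neither scale is a measure of mature mRNA, because reads in exons and introns were not counted apart.

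Among tested paralogues of the factors, only the Klf genes included calls in both directions. Of 31 paralogues (other Klf, Esrr, Nr5a, Nr0b, Tbx, Tfcp2, Yy and Tcl1 genes), 22 were tested, with 3 called higher and 3 lower. Over all genes tested, 7.34% were called higher and 8.03% lower. The median log2 fold change of the paralogues was 0.01. The 3 called higher were Klf12 (0.91 ± 0.05), Klf3 (0.76 ± 0.05) and Klf6 (0.69 ± 0.03), and those called lower were Esrrg (-1.36 ± 0.20), Klf7 (-0.84 ± 0.05) and Klf13 (-0.64 ± 0.03; SE, limma). Yy1, the ancestral relative of Zfp42, measured 5615, 5752 and 5621 normalized reads in WT and 5746, 5812 and 5973 in DKO, and the groups overlapped. Tcl1b1, Tcl1b2, Tcl1b3 and Tcl1b5, which lie in the same gene cluster as Tcl1, held 3 reads or fewer in every library.

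Klf2, Klf4 and Klf5 were not the most abundant Klf genes of these cells. Per kilobase of exons, Klf10 stood at 1155 normalized reads in WT, Klf16 at 1131, Klf9 at 764, Klf13 at 574, Klf6 at 457 and Klf11 at 312, all above Klf2 at 241. Among these 6 abundant relatives, Klf6 was called higher and Klf13 lower, and Klf10 (log2 fold change -0.27 ± 0.03), Klf9 (0.44 ± 0.03), Klf11 (0.00 ± 0.04) and Klf16 (0.01 ± 0.03) were not called.

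**Figure D4:**
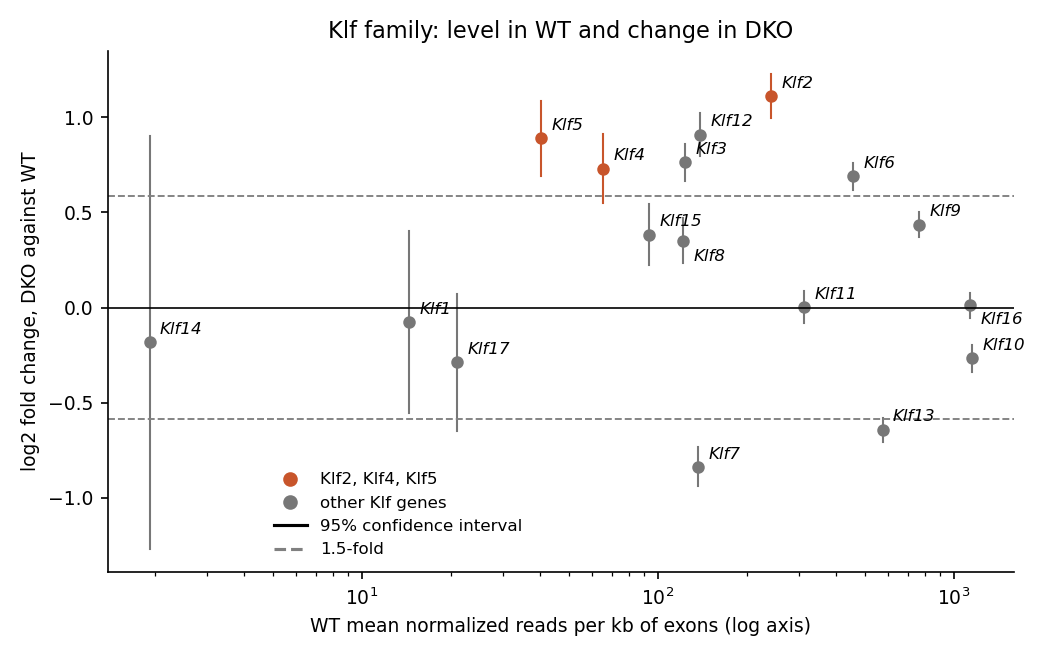
Log2 fold change (DKO against WT, with 95% confidence interval) of the 17 Klf genes against their WT mean in normalized reads per kilobase of exons (log axis), with Klf2, Klf4 and Klf5 in orange and 1.5-fold dashed. Klf2 at 1.11 has the largest increase of the family. Of the genes more abundant than Klf2, Klf10, Klf11 and Klf16 lie between -0.27 and 0.01, while Klf6 (0.69), Klf9 (0.44) and Klf13 (-0.64) moved more.

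Genes next to the factors were examined as well. Of the 20 nearest tested genes, 1 on each side of each factor, 2 were called higher and 0 lower, with a median log2 fold change of 0.00. The 2 were Klf12, 553 kb from Klf5, and Mageb4, 54.3 kb from Nr0b1 and low in both groups (8.82 and 16.0 mean normalized reads). Within 3 genes on each side, 6 of 60 were called higher and 1 lower, the latter being Triml1 near Zfp42 (log2 fold change -0.62 ± 0.06). The shares over all genes tested were 7.34% higher and 8.03% lower.

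Of 12 other genes of the naive state, 6 were called higher and 0 lower, beside 7.34% and 8.03% of all genes tested. Their median log2 fold change was 0.61. Those that rose included Prdm14, which represses Fgf receptor signalling (2.31 ± 0.21), Dppa3 (2.09 ± 0.08), Fbxo15 (1.37 ± 0.04) and Pecam1 (1.25 ± 0.04). Prdm14 was scarce, with means of 13.6 normalized reads in WT and 72.3 in DKO. Dppa3 went from 142 to 612, Fbxo15 from 1421 to 3662 and Pecam1 from 963 to 2301. Nanog, with 845, 850 and 857 normalized reads in WT and 734, 680 and 638 in DKO, lay lower in every DKO library than in every WT library (log2 fold change -0.32 ± 0.05, limma, adjusted p = 6.78e-06) without reaching the fold threshold. Dppa5a stood at -0.30 ± 0.03 and Fgf4 at 0.18 ± 0.03, neither of them called.

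Among 4 genes of general pluripotency, Sox2 rose from 2745, 2830 and 2818 normalized reads in WT to 7617, 7826 and 7780 in DKO (log2 fold change 1.47 ± 0.03, limma, adjusted p = 1.30e-25), and Sall4 rose by 0.67 ± 0.02. Pou5f1 (-0.07 ± 0.02) and Utf1 (-0.09 ± 0.04) were not called. Of 12 formative and primed genes, 0 were called higher and 4 lower (median -0.20), namely Fgf5 (-2.02 ± 0.04), Sox3 (-0.82 ± 0.07), Zic5 (-0.65 ± 0.06) and Pou3f1 (-0.62 ± 0.03). Among all genes tested, 7.34% were called higher and 8.03% lower. By the adjusted p alone, 8 of the 12 formative and primed genes were lower and 4 higher, the latter including Otx2 (0.23 ± 0.03). That rule put 26.5% of all genes lower and 27.1% higher.

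Genes of the 3 signalling inputs were examined next, by transcript level only, and signalling itself was not measured. LIF was part of the ESC medium and is not listed for the 48 h in EpiLC medium. The LIF input showed 3 of 5 genes called higher and 0 lower, beside 7.34% and 8.03% of all genes tested. Its median log2 fold change was 1.26. Lifr, the LIF receptor, measured 761, 763 and 818 normalized reads in WT and 2412, 2414 and 2585 in DKO (1.66 ± 0.04, limma, adjusted p = 5.60e-23). Its partner Il6st (gp130) rose by 1.26 ± 0.04, and Socs3, a transcriptional target of Stat3, by 1.31 ± 0.12. Stat3 itself was at -0.22 ± 0.06 and Jak1 at 0.24 ± 0.04, neither of them called.

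For the Wnt input, 0 of 5 genes were called higher and 1 lower (median -0.15). That gene was Tcf7l1, the repressor of Esrrb, Tfcp2l1 and Klf2, which measured 2255, 2247 and 2021 normalized reads in WT and 1323, 1242 and 1277 in DKO (log2 fold change -0.76 ± 0.04, limma, adjusted p = 3.72e-15). Axin2, a target of β-catenin, was at 0.54 ± 0.05, under the fold threshold. For the Erk input, 2 of 7 genes were called higher and 0 lower (median 0.06), Spry4 (0.81 ± 0.04) and Egr1 (0.81 ± 0.06), and Dusp6 was at -0.30 ± 0.03. Of 11 genes linked to the exit from the naive state, 1 was called higher, Rbpj (1.06 ± 0.03), and 1 lower, Tcf7l1. Among all genes tested, 7.34% were called higher and 8.03% lower, so the exit list stood near the shares of all genes. The folliculin complex genes Flcn, Fnip1 and Fnip2 lay between 0.00 and 0.24.

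**Figure D5:**
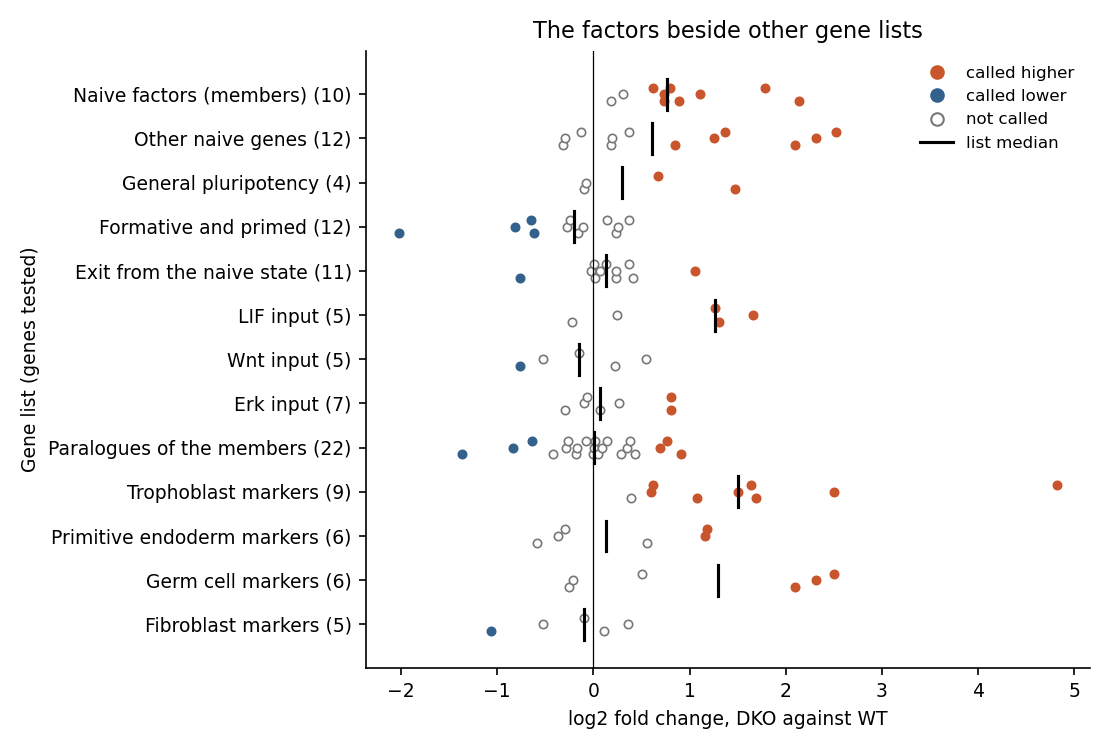
Log2 fold change (DKO against WT) of every tested gene in the naive factor list and in 12 other lists, coloured by call, with a black bar at the list median and the number tested in parentheses. The naive factors have a median of 0.76, the LIF input 1.26, the trophoblast markers 1.50, the paralogues 0.01 and the formative and primed genes -0.20.

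Markers of other cell types moved with the factors in part. Of 10 trophoblast markers, 9 were tested and 8 were called higher, beside 7.34% of all genes tested. Their median log2 fold change was 1.50, and their summed level ranged from 758 to 788 normalized reads in WT and from 1881 to 2121 in DKO. Gata3 (4.82 ± 0.25), Tfap2c (2.50 ± 0.10) and Krt8 (1.64 ± 0.06) were among them. Elf5, a defining gene of trophoblast stem cells, was at 0 in 4 of the 6 libraries and at most 3.11 normalized reads, and Cdx2 ranged from 10.2 to 17.1 in WT and from 36.6 to 42.0 in DKO. Klf5 and Esrrb are known to be expressed in trophoblast as well. The part of trophoblast-like cells in the increase of the factors was not tested.

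The counts of the next 3 lists stand beside 7.34% of all genes called higher and 8.03% called lower. For germ cells, 3 of 6 markers were called higher, and each of them is shared with another list. Prdm14 and Dppa3 are naive genes too, and Tfap2c is also among the trophoblast markers. Summed levels of the 6 were 928 to 967 normalized reads in WT and 1876 to 2088 in DKO. Ddx4 (0.51 ± 0.05), Prdm1 (-0.21 ± 0.10) and Nanos3 (-0.25 ± 0.24) were not called. Primitive endoderm markers, of interest because of Tbx3, showed 2 of 6 tested called higher (Gata6 and Pdgfra) and 0 lower, and their summed levels were 282 to 318 in WT and 311 to 335 in DKO. Most of the WT sum came from Dab2, which went from a mean of 198 to 154 (log2 fold change -0.37 ± 0.10, not called). Gata6 went from 13.8 to 32.9 and Pdgfra from 36.8 to 83.3, so the sum does not describe the single markers. Of 5 tested fibroblast markers, 0 were called higher and 1 lower. The part of these cell types in the result was not tested either.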

How the data were processed

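RNA sequencing of ribosome-depleted total RNA (strand-specific, paired-end, 75 cycles) was performed on 3 WT and 3 DKO EpiLC cultures. The methods state that reads were cleared of ribosomal sequence (Bowtie2), aligned to mm10 (STAR), freed of duplicates (SAMtools) and counted by the authors over refGene gene bodies. Tool versions and whether counting used strand are not given in the sources used here. The deposited values are a signal, read counts divided by 1 DESeq2 size factor per library, without scaling for length. Of 806 pairs of entries that share a span but differ in exons, 776 (96.3%) held equal values, so the counts are read as including introns. A second deposited table holds the authors' comparison (mean signal, log2 fold changes, standard error, Wald score, p-values) and was not used.

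Dividing by the value of 1 read gave whole numbers (within 0.01) for 100% of values, with size factors of 1.76 to 1.93. Of read values from 1 to 10, 71.1% were even, so mates of a pair are often counted as separate reads and are not independent. Totals of 57644143 to 63046034 reads per library limit precision only for the lowest genes. The 138 rows without a symbol (0.517% of reads) were left out. Because the deposited values are normalized, limma (version 3.58.1, R 4.3.3, variance trend) was applied to log2(value + 1), which understates changes of low genes, over entries passing filterByExpr of edgeR (version 4.0.16), with Benjamini-Hochberg adjustment over 25361 entries. All 6 libraries were fitted without covariates. The count tests of edgeR (2647 genes called, against 2619 in the main test), DESeq2 (version 1.42.0; 2479) and limma-voom on recovered reads, other scalings, pseudocounts of 0.1 and 10, other filters, other uses of entries, other call rules, a replicate term and leaving out each library were alternatives. The fits were tested on simulated data.

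The named genes are the 10 factors, Smad2 and Smad3, and genes of fixed lists, of which mainly those called with the largest changes and those with the highest levels are named. The 10 factors and the lists were chosen with earlier results of these data known. Neighbouring genes and the uncalled or silent paralogues and list genes that are named were chosen after their values were seen. Gene positions and upstream sequences (250 bases) came from RefSeq on GRCm38.p6. The gene positions are spans of the whole gene and can differ from the ends of the entry used. Starts and ends of separate entries, strands and overlaps came from GENCODE on the same assembly. Upstream sequences were matched for 8 of the 10 factors. For the 2 starts of a gene, reads in the longer entry alone were the difference between its entries, at whichever end these differed.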

Additional observations from a re-analysis of the deposited data

How the results depend on the processing

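The 10 factors were higher in DKO under each of the alternatives run, and 194 of 199 alternative values kept both the direction and the call. When the test was made against a fold change of 1.5 itself, Klf4 (0.73, adjusted p = 0.563), Zfp42 (0.62) and Tcl1 (0.73) were no longer called and 5 factors remained called higher. With the adjusted p alone, Esrrb (0.18) and Nr0b1 (0.30) were called as well. Genes called higher and lower over the series numbered 1250 and 1369 in the main test, 571 and 631 at a mean of at least 100 normalized reads, 4611 and 4522 with the adjusted p alone, and 526 and 595 against a fold change of 1.5. Fewer genes entered the test with a mean of at least 100, and Tcl1 was not among them. Leaving out 1 library at a time moved Nr5a2 between 1.98 and 2.24, Tbx3 between 1.74 and 1.84, Zfp42 between 0.59 and 0.64, Esrrb between 0.15 and 0.21 and Nr0b1 between 0.21 and 0.36.

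Shares of the summed reads depend on the scale. Zfp42 supplied 29.2% in WT and 25.5% in DKO per kilobase of gene body and 52.1% and 48.7% per kilobase of exons, and Esrrb 0.974% and 0.628% per kilobase of gene body and 9.63% and 6.65% per kilobase of exons. In each case the DKO share was the lower one. Deviations of same-numbered WT and DKO libraries correlated at -0.00787, -0.0252 and 0.00475 over 13071 genes, so the replicate numbers did not pair the libraries. With the replicate block, 2626 genes were called and the factors called higher were still 8. With a pseudocount of 10, 2096 genes were called. For the 8 lists of pathway genes and paralogues, all 176 counts called in either direction stayed within 1.5 times the main count under the count tests, both pseudocounts, the block and leaving out each library. By the adjusted p alone, counts were larger, with 8 paralogues and 7 exit genes higher and 8 formative and primed genes lower. That rule put 27.1% of all genes tested higher and 26.5% lower. Lists of cell type markers were not run under these alternatives. With 3 libraries per genotype from 1 line each, p-values describe the spread between differentiations of those lines.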
